A study of Mus musculus with 4 samples.

Results

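TGF-beta and bone morphogenetic protein (BMP) pathway transcripts were measured in mouse epidermal keratinocytes, the cells that build the outer layer of the skin. The genes were chosen by symbol from the 13102 genes of the tables. They comprise ligands, antagonists, latency proteins, receptors, SMAD proteins, their regulators and the Id genes. In all 53 genes matched. Of these, 52 averaged 1 CPM or more over the libraries (CPM, counts scaled to library size), and Bmp3 did not. GENCODE M21 holds 73 protein-coding genes that match the same rule. The other 20 were not analysed here, among them Smad6, Smad9, Acvr1c, Ltbp2 and Bmp5. 2 of the matching genes are no ligands in spite of their names. Bmp1 encodes a metalloprotease that processes procollagens, and Bmp2k encodes a kinase.

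Primary keratinocytes of neonatal C57BL/6 mice were cultured for 48 h, and RNA was sequenced from 4 groups with 1 library each. The groups were Il17rc knockout (KO) cells, Il17rd KO cells and wild-type (WT) cells, all given interleukin-17A (IL-17A) at 100 ng/mL for 8 h, and untreated WT cells. IL-17A is an inflammatory cytokine of the skin, and Il17rc and Il17rd encode members of its receptor family. The alleles, the number and sex of the mice and an untreated library of either KO were not given or not analysed here, so genotype and response to the cytokine cannot be told apart.

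Secreted ligands of this family bind pairs of type I and type II receptor kinases, which phosphorylate SMAD proteins that enter the nucleus with Smad4. TGF-beta and activins act mainly through Smad2 and Smad3, and BMPs through Smad1 and Smad5. In the epidermis TGF-beta is known to restrain keratinocyte division, activin A to be made in wounds, and BMPs to favour differentiation. Secreted antagonists such as noggin, gremlin and follistatin hold the ligands off their receptors.

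Library totals lay between 19711866 and 19904695 counts. With 1 library per group there is no replicate check and no p-value. A gene is called higher or lower where the CPM of 2 libraries differed at least 2-fold and the exact 95% interval of the ratio, which covers counting error only and is given in parentheses, excluded 1. A call describes 2 libraries, not the conditions. Il17rd, the gene deleted in Il17rd KO cells, had 150 counts in Il17rc KO, 5 in Il17rd KO and 265 in WT cells with IL-17A, against 252 in untreated WT cells. Il17rc had 439 counts in Il17rc KO, 1718 in Il17rd KO and 1152 in WT cells with IL-17A, against 2729 in untreated WT cells, so transcript of it was still counted in its own KO. Krt5 and Krt14, the keratins of basal keratinocytes, had between 195461 and 390468 counts in every library, which fits the labelled cell type. The Y-linked gene Ddx3y had 749 counts in Il17rc KO, 2 in Il17rd KO and 233 in WT cells with IL-17A, against 654 in untreated WT cells, so the sex of the mice and the groups cannot be told apart.

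In WT cells given IL-17A, transcripts of activin A and of its inhibitor follistatin were both more abundant than in untreated WT cells, while Bmp2, Bmp4, the BMP antagonists Nog and Grem1, and all 4 Id genes were less abundant. Of the 52 genes, 6 were called higher and 13 lower, which is 36.5%. The same rule called 19.7% of all 12934 genes tested, 8.97% higher and 10.7% lower. The median log2 ratio of the 52 genes was -0.35, beside 0.00 for all genes tested. At 10 CPM or more on average, 35 of the genes remained to be tested, of which 5 were higher and 3 lower, beside 15.0% of all genes at that level. In the bulk RNA of a culture, fewer cells of a type and less RNA per cell cannot be told apart.

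Both KO libraries were set against WT cells with IL-17A, a library that all 3 of these comparisons share. In Il17rc KO cells 7 of the 52 genes were called higher and 5 lower, or 23.1%, beside 11.1% of all genes tested, 6.22% higher and 4.84% lower. At 10 CPM or more on average, 3 of 35 were called, which is near the share of all genes at that level, 7.99%. In Il17rd KO cells 9 were called higher and 2 lower, or 21.2%, beside 10.0% of all genes, 6.27% higher and 3.73% lower. At 10 CPM or more the count was 6 of 35, beside 6.91% of all genes. Bmp2, Id1, Ltbp4, Grem1 and Tgif2 were called higher and Acvrl1 lower in each KO. These are comparisons against 1 common library, so their directions are not independent of each other. In total 24 of the 52 genes were called in at least 1 of the 3 comparisons. The other 28 differed at most 1.97-fold between the highest and the lowest of the 4 libraries. The share of all genes called in at least 1 of the 3 comparisons, or in each KO, was not counted. Whether the pathway genes exceed it is therefore unknown.

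**Figure D1:**
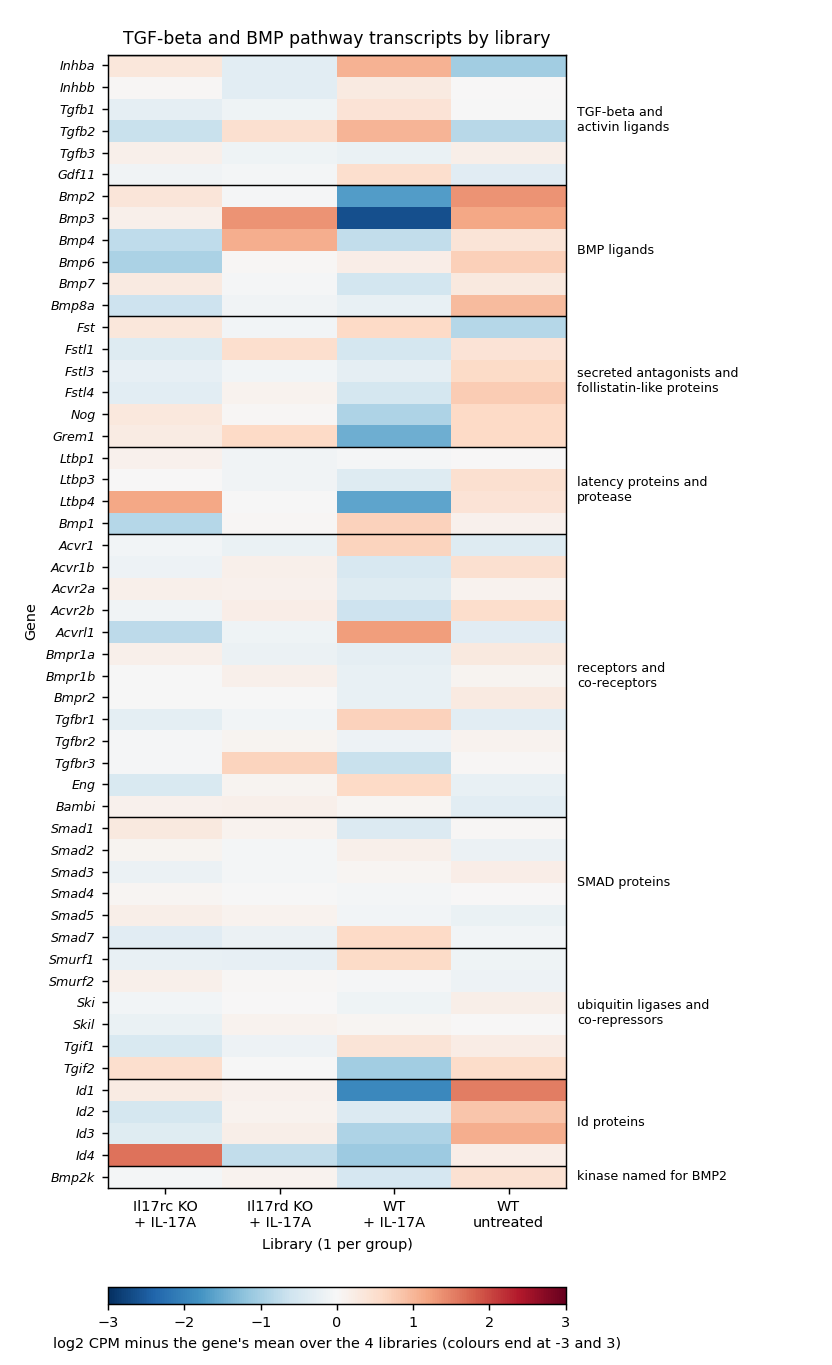
Level of 52 of the 53 genes (rows, grouped by role) in the 4 libraries (columns), as log2 CPM minus the gene's own mean over the libraries, with red above and blue below that mean and colours ending at -3 and 3. The WT library with IL-17A is red for Inhba, Tgfb2 and Acvrl1 and blue for Bmp2, Bmp3, Grem1, Ltbp4, Id1 and Id3, and the SMAD rows other than Smad7 are pale in all libraries.

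**Figure D2:**
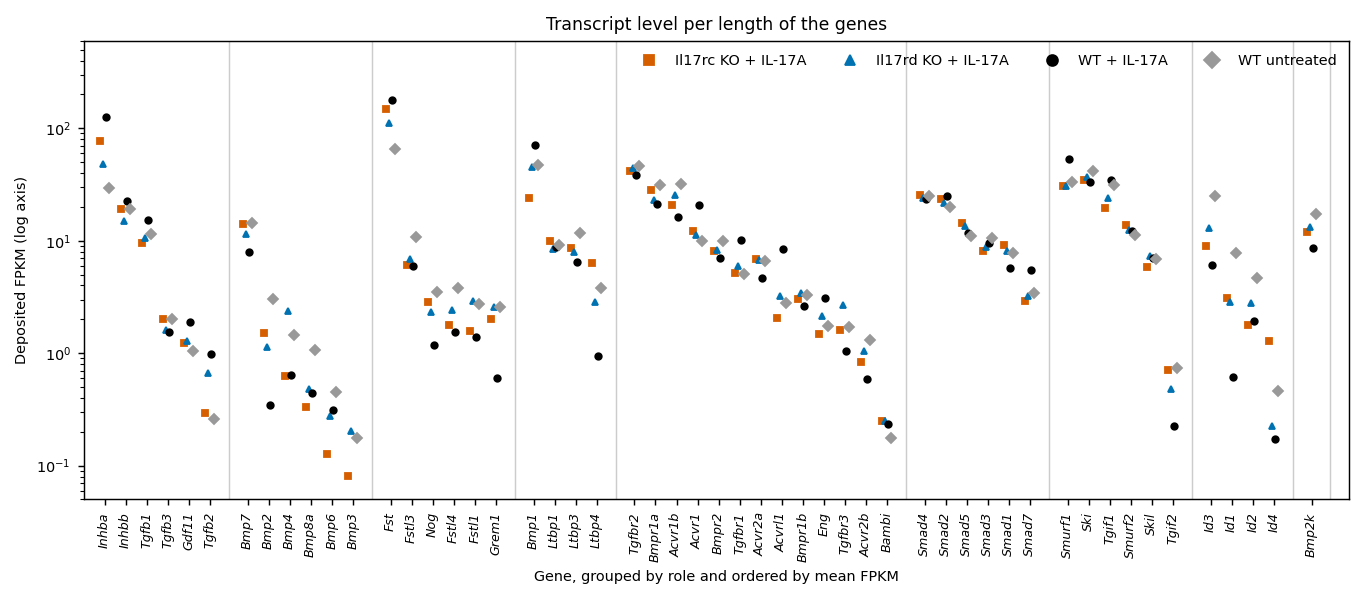
Transcript level per length (deposited FPKM, log axis) of 52 of the 53 genes, grouped by role and ordered by mean, with 1 symbol per library (orange square, Il17rc KO with IL-17A; blue triangle, Il17rd KO with IL-17A; black circle, WT with IL-17A; grey diamond, untreated WT). Fst and Inhba stand highest, at mean FPKM values of 126 and 69.9; Bmp3 has no symbol for WT with IL-17A because it is listed at 0 there.

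Levels of different genes were compared as FPKM, the authors' count scaled to gene length and library size. Fst had the highest mean over the 4 libraries, at 126 FPKM, followed by Inhba at 69.9, Bmp1 at 46.9 and the type II TGF-beta receptor gene Tgfbr2 at 42.5. Smad4, Smad2 and Bmpr1a lay between 22.6 and 25.9 FPKM. Among ligands other than activin subunits, Bmp7 and Tgfb1 led, at 11.9 and 11.6 FPKM. Bmp3, Bambi, Bmp6, Tgif2, Id4, Tgfb2, Bmp8a and Acvr2b averaged under 1 FPKM, and their ratios rest on few reads.

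Activin subunit transcripts were the most abundant ligand transcripts. Inhba (chromosome 13, 16011851 to 16031621, plus strand, GRCm38), whose product dimerises to activin A, had 9829 counts in Il17rc KO, 6386 in Il17rd KO and 15679 in WT cells with IL-17A, against 3590 in untreated WT cells. The WT library with IL-17A was the highest of the 4 and untreated WT the lowest. Inhba was 4.28-fold higher (4.13 to 4.44) in WT cells with IL-17A than in untreated WT cells. It was 2.58-fold lower (2.50 to 2.65) in Il17rd KO cells than in WT cells with IL-17A. In Il17rc KO cells it was 1.63-fold lower (1.59 to 1.68), which is under the size called. Per length, Inhba made up 70.4% of the summed FPKM of the 6 TGF-beta and activin ligand genes in Il17rc KO, 62.6% in Il17rd KO and 74.8% in WT cells with IL-17A, against 46.5% in untreated WT cells.

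Inhbb, which encodes the other activin subunit measured, varied far less. It had 1639 counts in Il17rc KO, 1303 in Il17rd KO and 1878 in WT cells with IL-17A, against 1551 in untreated WT cells, and was called in no comparison. Tgfb1, the main TGF-beta isoform gene of these cells by FPKM, had 965, 1090 and 1497 counts in Il17rc KO, Il17rd KO and WT cells with IL-17A, against 1101 in untreated WT cells, and was not called either. Tgfb2 was a low transcript, with 34 counts in Il17rc KO, 80 in Il17rd KO and 112 in WT cells with IL-17A, against 29 in untreated WT cells. It was 3.78-fold higher (2.50 to 5.91) in WT cells with IL-17A than in untreated WT cells, and 3.38-fold lower (2.28 to 5.11) in Il17rc KO cells than in WT cells with IL-17A. In Il17rd KO cells Tgfb2 was 1.47-fold lower (1.09 to 1.98) than in WT cells with IL-17A, and between the KO libraries it was 2.30-fold lower (1.52 to 3.54) in Il17rc KO than in Il17rd KO cells. Tgfb3 and Gdf11 stayed under 2-fold in every comparison.

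Follistatin, the product of Fst, binds activins and keeps them from their receptors. Fst (chromosome 13, 114452290 to 114458951, minus strand) had 10109 counts in Il17rc KO, 7762 in Il17rd KO and 11816 in WT cells with IL-17A, against 4230 in untreated WT cells. The order of the libraries was the same as for Inhba. Fst was 2.74-fold higher (2.64 to 2.83) in WT cells with IL-17A than in untreated WT cells, and 1.20-fold (1.17 to 1.23) and 1.60-fold (1.55 to 1.64) lower in Il17rc KO and Il17rd KO cells than in WT cells with IL-17A. Against untreated WT cells, Il17rc KO cells had 2.28-fold more Fst (2.20 to 2.37) and 2.62-fold more Inhba (2.52 to 2.72), both called, and Il17rd KO cells had 1.71-fold (1.65 to 1.78) and 1.66-fold (1.59 to 1.73) more, neither called. The annotation places an antisense gene, Gm47040, over 115 bases of the Fst exons. Whether the counting used strand is unknown, so reads of a gene and an overlapping partner cannot be told apart.

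The BMP antagonists behaved unlike follistatin. Nog encodes noggin, and had 97 counts in Il17rc KO, 81 in Il17rd KO and 39 in WT cells with IL-17A, against 113 in untreated WT cells. The WT library with IL-17A was the lowest, 2.96-fold (2.04 to 4.37) under untreated WT. Nog was 2.43-fold higher (1.66 to 3.62) in Il17rc KO cells, and 1.98-fold higher (1.33 to 2.98) in Il17rd KO cells, just under the size called. With library totals alone as scaling the Il17rd KO ratio was 2.10 and passed.

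Grem1, the gene of gremlin, had 169 counts in Il17rc KO, 220 in Il17rd KO and 49 in WT cells with IL-17A, against 205 in untreated WT cells. It was 4.27-fold lower (3.11 to 5.96) in WT cells with IL-17A than in untreated WT cells. It was 3.37-fold higher (2.44 to 4.73) in Il17rc KO and 4.28-fold higher (3.13 to 5.96) in Il17rd KO cells than in WT cells with IL-17A. Of the follistatin-like genes, Fstl4 was 2.47-fold lower (2.01 to 3.05) in WT cells with IL-17A than in untreated WT cells, with 132 against 319 counts, and had 157 counts in Il17rc KO and 216 in Il17rd KO cells. Fstl1 had 154 counts in Il17rc KO, 293 in Il17rd KO and 135 in WT cells with IL-17A, against 258 in untreated WT cells. It was 2.07-fold higher (1.68 to 2.55) in Il17rd KO than in WT cells with IL-17A, and 1.95-fold lower (1.58 to 2.42) in WT cells with IL-17A than in untreated WT cells. Fstl3 was not called, and its exons overlap those of Prss57 over 1157 bases on the opposite strand.

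Grem1, Fstl1 and Bmp4 are also known from fibroblasts, and fibroblast markers differed between the libraries too. Against WT cells with IL-17A, Grem1 was called higher in both KO libraries, but Fstl1 and Bmp4 in Il17rd KO cells only. In Il17rc KO cells Fstl1 had 154 counts against 135 in WT cells with IL-17A, and Bmp4 had 28 against 28. Of 16 fibroblast markers measured, 10 were lower and 1 higher in WT cells with IL-17A than in untreated WT cells. That is 68.8%, beside 19.7% of all genes tested. In Il17rc KO cells 7 of the markers were higher and 1 lower, and in Il17rd KO cells 10 were higher and 0 lower, than in WT cells with IL-17A. These are 50% and 62.5%, beside 11.1% and 10.0% of all genes tested. The collagen gene Col1a2 had 75 counts in Il17rc KO, 134 in Il17rd KO and 9 in WT cells with IL-17A, against 171 in untreated WT cells. Not all markers followed Col1a2. Postn was lower in Il17rc KO than in WT cells with IL-17A, at a log2 ratio of -2.38. Fbn1 was highest in WT cells with IL-17A, with 72 counts against 60 in untreated WT cells. The summed level of the 16 markers was 356 CPM in Il17rc KO, 468 in Il17rd KO and 482 in WT cells with IL-17A, against 487 in untreated WT cells. None was at 0 in any library. Col1a1, Col1a2, Col3a1, Col6a1, Col6a2 and Col6a3 each had at most 15.0 CPM in untreated WT cells. In WT cells with IL-17A each had at most 1.38 CPM. The sum thus rests mainly on other, more abundant markers and says little about these collagen genes. Markers of other cells were counted as well. Of 5 immune cell markers, 4 were lower in WT cells with IL-17A than in untreated WT cells, or 80%, beside 19.7% of all genes. Against WT cells with IL-17A, 1 was higher and 3 were lower in Il17rc KO cells, or 80%, beside 11.1%. In Il17rd KO cells 2 were higher, or 40%, beside 10.0%. The sum of the immune cell markers was 7.18 CPM in Il17rc KO, 24.1 in Il17rd KO and 24.8 in WT cells with IL-17A, against 55.1 in untreated WT cells. Of 6 hair follicle markers, 3 were lower in WT cells with IL-17A than in untreated WT cells, and 3 and 2 were higher in Il17rc KO and Il17rd KO cells than in WT cells with IL-17A. The hair follicle shares were 50%, 50% and 33.3%, beside 19.7%, 11.1% and 10.0% of all genes. Of 9 melanocyte markers, 2 were lower in WT cells with IL-17A than in untreated WT cells, and 1 was higher in each KO than in WT cells with IL-17A. The melanocyte shares, 22.2%, 11.1% and 11.1%, were near those of all genes, 19.7%, 11.1% and 10.0%. The part of these lists in the differences was not tested.

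BMP ligand transcripts were led by Bmp7, which made up 84.1% of the summed FPKM of the 6 BMP ligand genes in Il17rc KO, 71.7% in Il17rd KO and 81.9% in WT cells with IL-17A, against 69.9% in untreated WT cells. Bmp7 had 1134 counts in Il17rc KO, 940 in Il17rd KO and 622 in WT cells with IL-17A, against 1101 in untreated WT cells. WT cells with IL-17A were lowest, by 1.81-fold (1.64 to 2.0) against untreated WT, which is under the size called.

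Bmp2 (chromosome 2, 133552159 to 133562885, plus strand) had 107 counts in Il17rc KO, 83 in Il17rd KO and 24 in WT cells with IL-17A, against 205 in untreated WT cells. All 3 libraries given IL-17A lay below untreated WT, and the WT library lowest. Bmp2 was 8.72-fold lower (5.70 to 13.9) in WT cells with IL-17A than in untreated WT cells. It was 4.35-fold (2.77 to 7.09) and 3.30-fold (2.07 to 5.43) higher in Il17rc KO and Il17rd KO cells than in WT cells with IL-17A. Against untreated WT cells it was 2.0-fold lower (1.58 to 2.56) in Il17rc KO and 2.65-fold lower (2.04 to 3.46) in Il17rd KO cells. The first of these is at the edge of the size called and missed it with library totals alone, at 1.91-fold, and with a prior count of 2 in the fold, at 1.99-fold.

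Bmp4 did not follow Bmp2 in the Il17rc KO library. It had 28 counts in Il17rc KO, 109 in Il17rd KO and 28 in WT cells with IL-17A, against 62 in untreated WT cells. The Il17rd KO library was highest, 3.71-fold (2.43 to 5.84) above WT cells with IL-17A. Il17rc KO cells were 1.02-fold lower (0.585 to 1.80) than WT cells with IL-17A and 3.80-fold lower (2.49 to 5.98) than Il17rd KO cells. Bmp8a was 2.38-fold lower (1.40 to 4.18) in WT cells with IL-17A than in untreated WT cells, on 21 against 49 counts. Bmp6 was 2.46-fold lower (1.13 to 5.76) in Il17rc KO than in WT cells with IL-17A, on 10 against 24 counts, and overlaps Txndc5, an abundant transcript of the opposite strand, over 224 exon bases. Between the KO libraries it was not called, but passed as 2.23-fold lower in Il17rc KO than in Il17rd KO cells with upper-quartile scaling. Bmp3 had 12 counts in Il17rc KO, 31 in Il17rd KO and 0 in WT cells with IL-17A, against 25 in untreated WT cells. Against a floor of 3 counts per library it was at least 8.51-fold lower in WT cells with IL-17A than in untreated WT cells, but its mean was too low for a call.

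**Figure D3:**
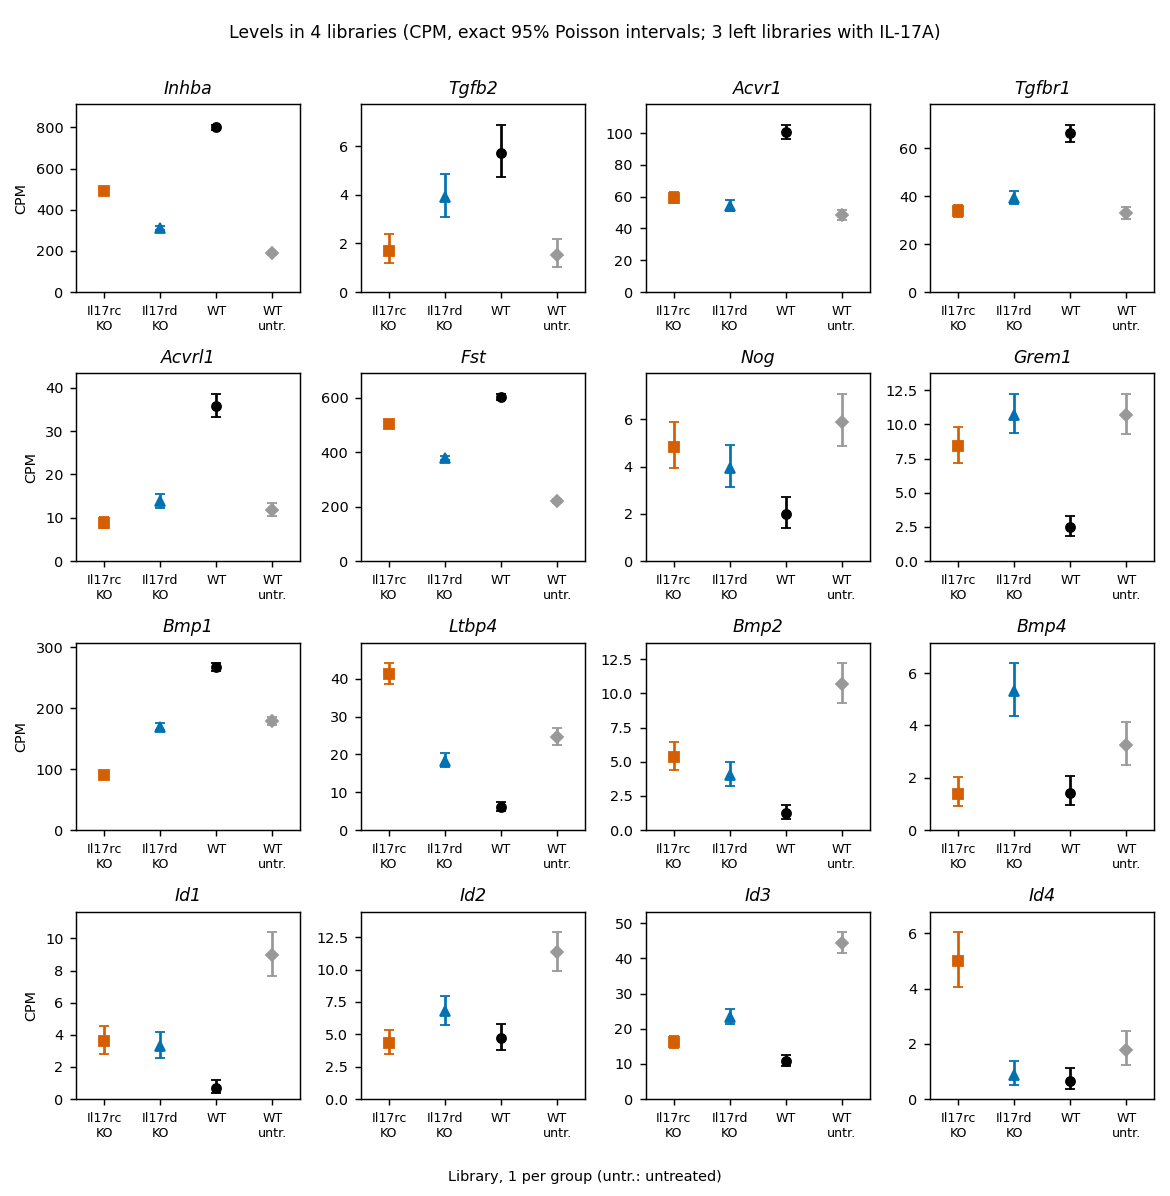
Level in CPM (vertical axes, from 0) of 16 genes in 4 libraries, with exact 95% Poisson intervals for counting error. From left to right stand Il17rc KO, Il17rd KO and WT cells with IL-17A, and untreated WT cells. WT cells with IL-17A are highest for Inhba, Tgfb2, Acvr1, Tgfbr1, Acvrl1, Fst and Bmp1 and lowest for Nog, Grem1, Ltbp4, Bmp2, Id1, Id3 and Id4.

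Latent TGF-beta is held in the matrix by latent TGF-beta binding proteins. Ltbp4 (chromosome 7, 27305136 to 27337692, minus strand) had 829 counts in Il17rc KO, 377 in Il17rd KO and 120 in WT cells with IL-17A, against 471 in untreated WT cells. Il17rc KO was highest, and WT cells with IL-17A were lowest. Ltbp4 was 4.01-fold lower (3.27 to 4.94) in WT cells with IL-17A than in untreated WT cells. In Il17rc KO cells it was 6.74-fold higher (5.56 to 8.23) and in Il17rd KO cells 2.99-fold higher (2.43 to 3.71) than in WT cells with IL-17A. The KO libraries differed as well, Il17rc KO being 2.25-fold higher (1.99 to 2.55) than Il17rd KO. Ltbp1 and Ltbp3 were called in no comparison, and Ltbp1 differed at most 1.18-fold between any 2 libraries.

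The protease gene Bmp1 had 1826 counts in Il17rc KO, 3482 in Il17rd KO and 5229 in WT cells with IL-17A, against 3431 in untreated WT cells. It was lowest in Il17rc KO cells, 2.93-fold (2.78 to 3.10) under WT cells with IL-17A. Il17rd KO cells were 1.58-fold lower (1.51 to 1.65) than WT cells with IL-17A, and WT cells with IL-17A were 1.49-fold higher (1.43 to 1.56) than untreated WT cells, neither of them called. Between the KO libraries Bmp1 was 1.86-fold lower (1.76 to 1.97) in Il17rc KO than in Il17rd KO cells, which is also under the size called.

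Among 13 receptor and co-receptor genes, 3 type I receptor genes were called higher and the type II receptor gene Acvr2b lower in WT cells with IL-17A than in untreated WT cells, or 30.8%, beside 19.7% of all genes tested. Acvrl1 encodes a type I receptor best known from endothelium. It had 176 counts in Il17rc KO, 284 in Il17rd KO and 703 in WT cells with IL-17A, against 227 in untreated WT cells. WT cells with IL-17A stood alone, 3.03-fold (2.61 to 3.54) above untreated WT. Acvrl1 was 4.09-fold lower (3.46 to 4.86) in Il17rc KO cells than in WT cells with IL-17A. In Il17rd KO cells it was 2.60-fold lower (2.26 to 2.99).

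Acvr1, a type I receptor gene of the BMP branch, had 1188 counts in Il17rc KO, 1118 in Il17rd KO and 1975 in WT cells with IL-17A, against 928 in untreated WT cells. Tgfbr1, the type I receptor gene of TGF-beta, had 677, 806 and 1297 counts in Il17rc KO, Il17rd KO and WT cells with IL-17A, against 633 in untreated WT cells. For both genes WT cells with IL-17A were highest, by 2.08-fold (1.93 to 2.26) and 2.01-fold (1.82 to 2.21) over untreated WT, the second of which lies at the edge of the size called. Acvr1 was 1.70-fold (1.58 to 1.83) and 1.85-fold (1.72 to 2.0) lower in Il17rc KO and Il17rd KO cells than in WT cells with IL-17A, and Tgfbr1 was 1.96-fold (1.79 to 2.16) and 1.69-fold (1.55 to 1.85) lower, with no call. With upper-quartile scaling Tgfbr1 passed in Il17rc KO cells, at 2.06-fold lower.

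Acvr1b, the type I receptor gene of activin, went the other way, with 1825 counts in Il17rc KO, 2296 in Il17rd KO and 1411 in WT cells with IL-17A, against 2707 in untreated WT cells. It was 1.96-fold lower (1.84 to 2.09) in WT cells with IL-17A than in untreated WT cells and so just missed the size called. Acvr2b was 2.25-fold lower (1.56 to 3.27), on 45 against 99 counts, and had 66 counts in Il17rc KO and 85 in Il17rd KO cells. The co-receptor gene Tgfbr3, which encodes betaglycan, had 212 counts in Il17rc KO, 358 in Il17rd KO and 134 in WT cells with IL-17A, against 214 in untreated WT cells, and was 2.55-fold higher (2.08 to 3.13) in Il17rd KO than in WT cells with IL-17A. The co-receptor gene Eng had 121 counts in Il17rc KO, 179 in Il17rd KO and 246 in WT cells with IL-17A, against 135 in untreated WT cells, and was 2.08-fold lower (1.67 to 2.61) in Il17rc KO than in WT cells with IL-17A. Eng shares 61 exon bases with Fpgs on the opposite strand. Tgfbr2, Bmpr1a, Bmpr1b, Bmpr2, Acvr2a and the pseudoreceptor gene Bambi were called in none of the 6 comparisons.

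Acvrl1 and Eng are expressed in endothelial cells, of which 3 of 9 listed markers were measured. Their summed level was 9.23 CPM in Il17rc KO, 11.8 in Il17rd KO and 18.3 in WT cells with IL-17A, against 15.4 in untreated WT cells, and none was at 0. Pecam1 had 91 counts in Il17rc KO, 140 in Il17rd KO and 161 in WT cells with IL-17A, against 113 in untreated WT cells. Kdr was called higher in WT cells with IL-17A than in untreated WT cells, at a log2 ratio of 1.04, and Vwf lower, at -2.55. Their part in the receptor differences was not tested.

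The SMAD genes, which encode the signal carriers of the pathway, gave no call. All 6 measured, Smad1, Smad2, Smad3, Smad4, Smad5 and Smad7, stayed under 2-fold in the 6 comparisons. Smad4, the shared partner, had 1894 counts in Il17rc KO, 1838 in Il17rd KO and 1710 in WT cells with IL-17A, against 1769 in untreated WT cells, a spread of 1.08-fold. The inhibitory Smad7 varied most, with 262 counts in Il17rc KO, 303 in Il17rd KO and 491 in WT cells with IL-17A, against 298 in untreated WT cells. It was 1.61-fold higher (1.39 to 1.87) in WT cells with IL-17A than in untreated WT cells, and 1.92-fold (1.65 to 2.24) and 1.70-fold (1.47 to 1.97) lower in Il17rc KO and Il17rd KO cells than in WT cells with IL-17A. With upper-quartile scaling the Il17rc KO value reached 2.02-fold lower and was called. Smurf1, a ubiquitin ligase that acts on SMAD proteins and receptors, was also highest in WT cells with IL-17A, with 3942, 3959 and 6618 counts in Il17rc KO, Il17rd KO and WT cells with IL-17A, against 4013 in untreated WT cells. Its ratios did not reach 2-fold.

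Nuclear co-repressors of the pathway and the ubiquitin ligase gene Smurf2 were mostly level. Ski, Skil and Smurf2 differed at most 1.25-fold between libraries, and Tgif1 at most 1.80-fold. Tgif2 had 54 counts in Il17rc KO, 38 in Il17rd KO and 17 in WT cells with IL-17A, against 54 in untreated WT cells. It was 3.24-fold lower (1.85 to 5.97) in WT cells with IL-17A than in untreated WT cells, and 3.10-fold (1.77 to 5.70) and 2.13-fold (1.17 to 4.02) higher in Il17rc KO and Il17rd KO cells than in WT cells with IL-17A. Its values are uncertain, since Tgif2 has a near-identical copy, Tgif2-ps2, and 2171 of its exon bases overlap 5430405H02Rik on the opposite strand. The kinase gene Bmp2k was 1.97-fold lower (1.85 to 2.10) in WT cells with IL-17A than in untreated WT cells.

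**Figure D4:**
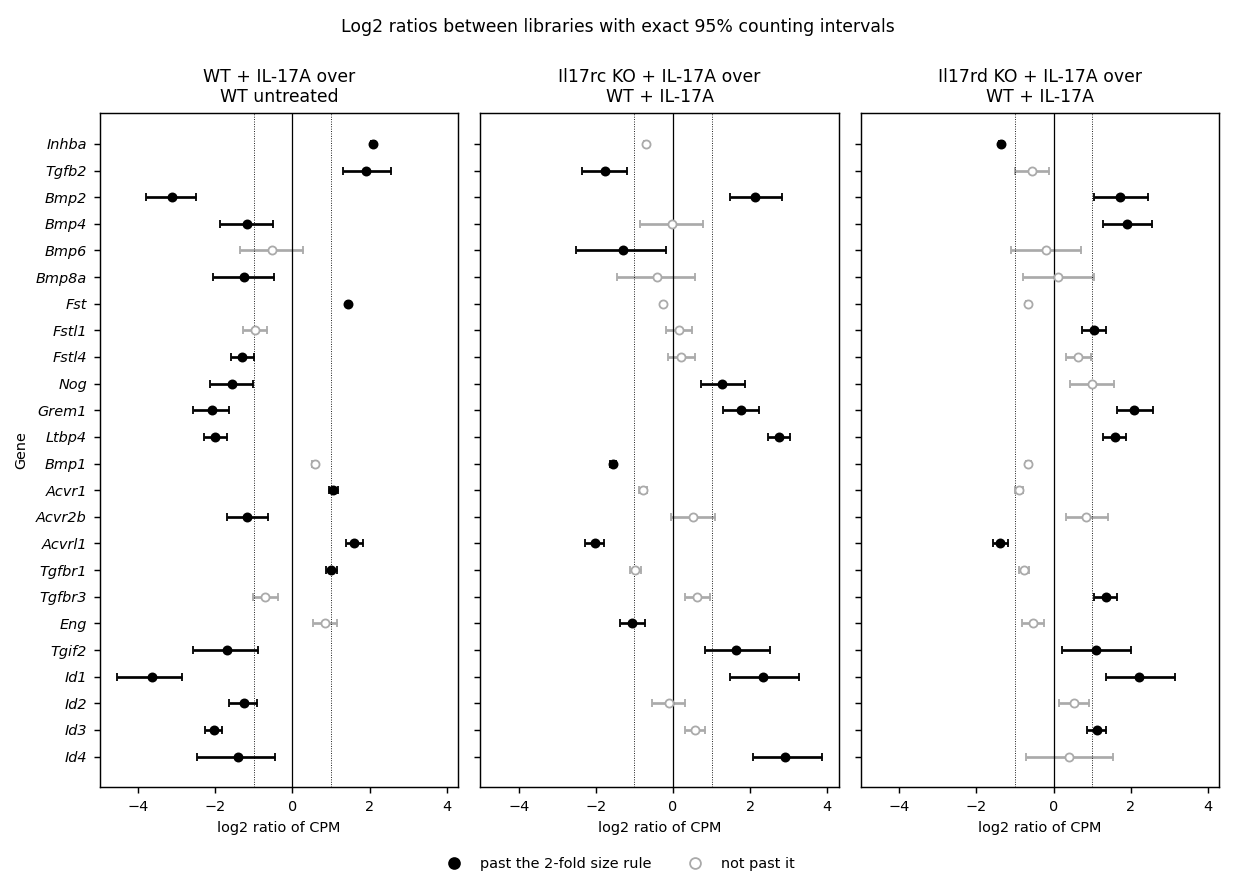
Log2 ratios of CPM (horizontal axes) with exact 95% counting intervals for the 24 genes called in at least 1 of the 3 comparisons, with called ratios in black, the others as open grey circles, and dotted lines at 2-fold. All 4 Id genes lie left of 0 in WT cells with IL-17A over untreated WT cells, and Id1 lies right of 0 for both KO libraries over WT cells with IL-17A.

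The Id genes encode helix-loop-helix proteins that lack a DNA-binding region and hold back other factors of that class, and Id1, Id2 and Id3 are textbook targets of BMP signalling. All 4 were called lower in WT cells with IL-17A than in untreated WT cells, or 100%, beside 10.7% of all genes tested. Their summed level was 15.2 FPKM in Il17rc KO, 18.9 in Il17rd KO and 8.75 in WT cells with IL-17A, against 37.6 in untreated WT cells. Id1 (chromosome 2, 152736251 to 152737410, plus strand) had 72 counts in Il17rc KO, 68 in Il17rd KO and 14 in WT cells with IL-17A, against 172 in untreated WT cells. It was 12.5-fold lower (7.27 to 23.4) in WT cells with IL-17A than in untreated WT cells. In Il17rc KO and Il17rd KO cells it was 5.02-fold (2.81 to 9.64) and 4.63-fold (2.58 to 8.91) higher than in WT cells with IL-17A, and 2.50-fold (1.89 to 3.34) and 2.71-fold (2.04 to 3.64) lower than in untreated WT cells.

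Id3, the most abundant Id transcript by FPKM, had 324 counts in Il17rc KO, 482 in Il17rd KO and 212 in WT cells with IL-17A, against 853 in untreated WT cells. Untreated WT was the highest and WT with IL-17A the lowest, 4.11-fold (3.53 to 4.80) apart. Against WT cells with IL-17A, Il17rd KO cells were 2.17-fold higher (1.84 to 2.56), and Il17rc KO cells were 1.49-fold higher (1.25 to 1.78), which was not called. Id2 had 87 counts in Il17rc KO, 139 in Il17rd KO and 92 in WT cells with IL-17A, against 217 in untreated WT cells. It was 2.41-fold lower (1.88 to 3.11) in WT cells with IL-17A than in untreated WT cells, and it was called in neither KO against WT cells with IL-17A.

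Id4 stood apart from its relatives in 1 library. It had 100 counts in Il17rc KO, 18 in Il17rd KO and 13 in WT cells with IL-17A, against 34 in untreated WT cells. Il17rc KO cells were 7.51-fold (4.20 to 14.6) above WT cells with IL-17A, 5.69-fold (3.42 to 9.99) above Il17rd KO cells and 2.81-fold (1.89 to 4.28) above untreated WT cells. WT cells with IL-17A were 2.67-fold (1.37 to 5.51) below untreated WT cells. Il17rd KO cells were 2.02-fold lower (1.11 to 3.81) than untreated WT cells, a call that was lost with upper-quartile scaling, at 1.98-fold, with library totals alone, at 1.87-fold, and with a prior count of 2 in the fold, at 1.92-fold. The opposite strand of Id4 carries Gm49291 and A330033J07Rik, which overlap 171 and 82 of its exon bases.

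The promoters of the Id genes in the RefSeq table and of Inhba, an abundant ligand gene that was called higher, are shown to set genes that were lower together beside one that was higher. Each runs from 250 bases before to 50 bases after the gene start, 5′ to 3′ on the gene's strand (GRCm38.p6), with matches to GGCGCC, a GC-rich motif of SMAD binding, in capitals. They are Id2 (chr12:25096043-25096342, minus strand), Id3 (chr4:136143572-136143871, plus strand), Id4 (chr13:48260866-48261165, plus strand) and Inhba (chr13:16011601-16011900, plus strand).
Id2: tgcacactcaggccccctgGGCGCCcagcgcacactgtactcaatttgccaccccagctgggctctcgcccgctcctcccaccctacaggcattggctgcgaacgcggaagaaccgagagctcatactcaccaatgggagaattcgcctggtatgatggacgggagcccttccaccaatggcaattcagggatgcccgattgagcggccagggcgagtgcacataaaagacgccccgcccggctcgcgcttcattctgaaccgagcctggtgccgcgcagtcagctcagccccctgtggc
Id3: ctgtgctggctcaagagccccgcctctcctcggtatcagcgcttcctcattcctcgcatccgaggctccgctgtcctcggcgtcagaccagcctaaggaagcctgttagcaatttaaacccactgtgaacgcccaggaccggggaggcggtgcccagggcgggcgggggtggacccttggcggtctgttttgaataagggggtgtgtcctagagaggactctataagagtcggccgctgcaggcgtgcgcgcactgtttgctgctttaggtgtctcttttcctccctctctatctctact
Id4: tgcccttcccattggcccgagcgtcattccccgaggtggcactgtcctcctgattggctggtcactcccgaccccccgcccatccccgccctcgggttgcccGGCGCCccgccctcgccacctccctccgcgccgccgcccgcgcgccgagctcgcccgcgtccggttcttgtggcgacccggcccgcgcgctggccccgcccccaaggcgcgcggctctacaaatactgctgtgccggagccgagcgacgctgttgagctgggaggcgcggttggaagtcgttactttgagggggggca
Inhba: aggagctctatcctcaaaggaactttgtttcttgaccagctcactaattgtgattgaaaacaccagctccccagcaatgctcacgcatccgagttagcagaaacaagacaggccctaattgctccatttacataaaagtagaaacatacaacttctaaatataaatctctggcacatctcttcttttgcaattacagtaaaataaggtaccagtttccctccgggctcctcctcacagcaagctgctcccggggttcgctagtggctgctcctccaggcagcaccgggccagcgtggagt
GGCGCC, which reads the same on both strands, occurred 1 time in the Id2 and Id4 promoters and 0 times in those of Id3 and Inhba. Of 32851 promoters of the same length, 11.9% held it, and of 49 promoters of the pathway genes 28.6% did. The 49 include alternative starts of the same gene, some of them overlapping, as for Ltbp4, so a match can be counted again. The promoters were not matched for GC content. The short SMAD box GTCT, searched on both strands, was found 1 time in Id2, 3 times in Id3, 0 times in Id4 and 1 time in Inhba. It was in 81.6% of the 49 promoters of the pathway genes, beside 88.0% of all promoters. Its palindrome GTCTAGAC, whose matches also hold GTCT, was in none of the 4, in 0 of the 49 and in 0.213% of all promoters. GC content was 63.3% in Id2, 60.0% in Id3 and 73.3% in Id4, against 47.7% in Inhba. A match describes these letters only.

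Keratinocyte differentiation genes were lowest in sum in WT cells with IL-17A, as were Bmp2, Bmp7, Id1, Id3 and Id4, whereas Bmp4, Bmp6, Bmp8a and Id2 were lowest in Il17rc KO cells. Of the last 4, Bmp6 alone differed between these libraries beyond counting error. Of 17 spinous and granular markers, 15 were lower and 0 higher in WT cells with IL-17A than in untreated WT cells. That is 88.2%, beside 19.7% of all genes tested. Against WT cells with IL-17A, 14 of the 17 were higher in Il17rc KO and 13 in Il17rd KO cells, and 0 were lower in either. These are 82.4% and 76.5%, beside 11.1% and 10.0% of all genes tested. Krt10 had 2220 counts in Il17rc KO, 3635 in Il17rd KO and 220 in WT cells with IL-17A, against 11590 in untreated WT cells. The summed level of the list was 3196 CPM in Il17rc KO, 3504 in Il17rd KO and 884 in WT cells with IL-17A, against 7577 in untreated WT cells. Of 20 cell cycle genes listed, 20 were higher in Il17rc KO, 17 in Il17rd KO and 20 in WT cells with IL-17A than in untreated WT cells. That is 100%, 85% and 100%, beside 14.3%, 8.71% and 19.7% of all genes tested. Against WT cells with IL-17A, 7 of the 20 were higher and 0 lower in Il17rc KO cells, and 0 were higher and 1 lower in Il17rd KO cells. These are 35% and 5%, beside 11.1% and 10.0% of all genes tested. The summed level of the cell cycle genes was 3370 CPM in Il17rc KO, 1977 in Il17rd KO and 1949 in WT cells with IL-17A, against 712 in untreated WT cells. The part of either list in the pathway differences was not tested.

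Known targets of the pathway outside the symbol rule were described next. Of 10 BMP target genes measured, 4 were lower and 0 higher in WT cells with IL-17A than in untreated WT cells, beside 10.7% lower and 8.97% higher of all genes. The median log2 ratio was -0.93 beside 0.00 for all genes. They were the homeobox genes Hoxc13, Dlx3 and Msx2, at log2 ratios of -2.39, -2.21 and -1.04, and the transcription factor gene Gata3, at -1.03. Against WT cells with IL-17A, Hoxc13 was the 1 gene called in Il17rc KO cells, at 1.17, and Dlx5, Hoxc13 and Dlx3 were higher in Il17rd KO cells, at 1.83, 1.19 and 1.13. That is 10% in Il17rc KO cells, near the 11.1% of all genes, and 30% in Il17rd KO cells, beside 10.0%. The homeobox genes and Gata3 also serve differentiation, so the list is not separate from the preceding one.

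Of 26 TGF-beta target genes, 6 were higher and 5 lower in WT cells with IL-17A than in untreated WT cells, beside 8.97% higher and 10.7% lower of all genes. Their median log2 ratio was 0.01. The matricellular gene Cyr61 had 2176 counts in Il17rc KO, 3054 in Il17rd KO and 13861 in WT cells with IL-17A, against 2872 in untreated WT cells. WT cells with IL-17A stood above the other 3 libraries. Tgfbi, named for its induction by TGF-beta, was lowest there, with 1794 counts in Il17rc KO, 2865 in Il17rd KO and 735 in WT cells with IL-17A, against 4570 in untreated WT cells. The lower genes also included Col1a1 and Col1a2, which are fibroblast markers too.

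In Il17rc KO cells 12 of the 26 TGF-beta targets were lower than in WT cells with IL-17A, and 4 were higher, beside 4.84% lower and 6.22% higher of all genes. The median log2 ratio was -0.83 beside 0.04 for all genes. In Il17rd KO cells 7 were lower and 4 were higher, beside 3.73% and 6.27% of all genes. The median there was -0.18 beside 0.01. Ctgf, the connective tissue growth factor gene, was at log2 ratios of -2.23 and -2.88 in Il17rc KO and Il17rd KO cells. Pmepa1, a feedback inhibitor of TGF-beta signalling, was at -1.44 and -1.27, and Thbs1, whose product can activate latent TGF-beta, at -1.42 and -1.36. Col1a2 was the highest of the list, at 2.78 and 3.57.

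Extracellular modulators outside the rule were called lower more than higher in WT cells with IL-17A, at 7 lower and 0 higher of 20 measured, beside 10.7% lower and 8.97% higher of all genes. Sostdc1, a secreted inhibitor of BMP and Wnt ligands, had 883 counts in Il17rc KO, 1677 in Il17rd KO and 35 in WT cells with IL-17A, against 2212 in untreated WT cells. Rgma, a BMP co-receptor gene, had 1261 counts in Il17rc KO, 811 in Il17rd KO and 177 in WT cells with IL-17A, against 1545 in untreated WT cells. Itgb8, an integrin gene whose product activates latent TGF-beta, had 553 counts in Il17rc KO, 317 in Il17rd KO and 67 in WT cells with IL-17A, against 360 in untreated WT cells. All 3 were lowest in WT cells with IL-17A. The integrin genes Itgb6 and Itgav went the other way from Itgb8, and at higher levels. Itgb6 had 4458 counts in Il17rc KO, 4891 in Il17rd KO and 9136 in WT cells with IL-17A, against 5018 in untreated WT cells. Itgav had 5260, 5499 and 9981 counts in these libraries with IL-17A, against 4945 in untreated WT cells. Both were highest in WT cells with IL-17A. Against that library, 4 of the 20 were higher and 1 lower in Il17rc KO cells, beside 6.22% and 4.84% of all genes. In Il17rd KO cells 5 were higher and 1 lower, beside 6.27% and 3.73%. The lower one in each was Tll1, a protease gene related to Bmp1, at log2 ratios of -1.44 and -1.06.

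Between the KO libraries themselves, 4 of the 52 genes were called, or 7.69%, beside 4.24% of all genes tested, 1.49% higher and 2.75% lower. Id4 and Ltbp4 were higher, and Bmp4 and Tgfb2 lower, in Il17rc KO than in Il17rd KO cells, with the ratios given for each gene. Set against untreated WT cells, 3 genes were higher and 8 lower in Il17rc KO cells, or 21.2%, beside 14.3% of all genes, 7.27% higher and 7.0% lower. In Il17rd KO cells 1 was higher and 4 were lower, or 9.62%, beside 8.71% of all genes, 5.36% higher and 3.35% lower, so the share was near that of all genes. These side comparisons reuse the same 4 libraries.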

How the data were processed

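RNA-seq gene tables of 4 libraries, 1 per group, were used. Each deposited table gives a count and an FPKM value per gene symbol. Per the submitters' processing notes, the authors used Trim Galore 0.4.4, HISAT2, featureCounts of Subread and edgeR with mm10; for settings, annotation and strand use the sources used here give nothing. The deposited counts are whole numbers, and all 13102 deposited genes exceed 1 CPM in at least 2 libraries. The FPKM values of the authors imply the same relative library sizes as TMM scaling and served for levels between genes.

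TMM factors (edgeR 4.0.16) were 1.01, 1.04, 0.984 and 0.963 for Il17rc KO, Il17rd KO and WT with IL-17A and untreated WT. CPM are counts over these scaled sizes. Intervals of ratios are exact conditional binomial (Clopper-Pearson) at 95%; without molecular identifiers reads may repeat a molecule, so they cover counting error only. For log2 ratios 2 was added as prior count. The size rule was applied to the 12934 genes that averaged 1 CPM or more. Depth was close to equal, so precision depends on a gene's own count.

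The genes of the pathway and all lists were chosen with earlier results of these data known, and nothing here is independent support for them. Values of each library are given for genes called in any of the first 3 comparisons, and the most changed genes of each list are named; other genes named outside this rule, such as Inhbb, Smad4, Pmepa1 and Thbs1, were chosen after their values were seen. Coordinates and overlaps come from GENCODE M21 (GRCm38), which placed all 53 genes, near-identical copies from BLAST+ 2.17.0 at 95% identity over 50% of a transcript, and promoters from RefSeq (GRCm38.p6), which held 37 of the 53 genes. Id1 was not in that table. A gene of the pathway and a target gene enter the counts but are not reported here by name. Alternatives were other scalings, filters, fold sizes, prior counts and the FPKM values.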

Additional observations from a re-analysis of the deposited data

How the results depend on the processing

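No paired analysis was possible because each group has 1 library, and no replicate could be left out. Scaling with RLE size factors, upper-quartile factors or library totals kept each count of called genes within 1.5 times, and moved the median of all genes by at most 0.11 on the log2 scale, for Il17rd KO over untreated WT with library totals. The fold and the filter decided the counts. In the order WT with IL-17A over untreated WT, Il17rc KO and Il17rd KO over WT with IL-17A, Il17rc KO over Il17rd KO, and Il17rc KO and Il17rd KO over untreated WT, the counts were 19, 12, 11, 4, 11 and 5. With a fold of 1.5 they were 30, 24, 23, 10, 18 and 13. With a mean of at least 10 CPM they were 8, 3, 6, 1, 4 and 0, since fewer genes were tested. A fold of 3 gave 9, 4, 2, 2 and 0 in that order without Il17rc KO over WT with IL-17A, which stayed within 1.5 times. FPKM values with a pseudocount of 0.1 gave 3 in the last. A prior count of 2 in the fold, added after the data were seen, changed no count by more than 1.5 times. Of 210 alternative values of single genes none reversed, and 209 stayed within the counting interval; the exception was Inhba in Il17rd KO over WT with IL-17A, at -1.28 with library totals. Below about 50 counts per gene the intervals span several fold.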

Other observations

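Of 35 intracellular regulators measured outside the symbol rule, 0 were higher and 2 lower in WT cells with IL-17A than in untreated WT cells, or 5.71%, beside 19.7% of all genes. Their median log2 ratio was -0.05. The lower genes were the phosphatase gene Ctdsp2, with 2301 counts in Il17rc KO, 2977 in Il17rd KO and 1389 in WT cells with IL-17A, against 4930 in untreated WT cells, and the phosphatase subunit gene Ppp1r15a, with 1160, 1095 and 475 counts in Il17rc KO, Il17rd KO and WT cells with IL-17A, against 1154 in untreated WT cells. The endocytic adaptor gene Dab2 was lower in Il17rc KO than in WT cells with IL-17A, at a log2 ratio of -1.15.

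Although Fst and Inhba had the same order of libraries, their proportion differed. The ratio of Fst to Inhba, both as FPKM, was 1.95 in Il17rc KO, 2.30 in Il17rd KO and 1.43 in WT cells with IL-17A, against 2.23 in untreated WT cells. Smurf1 and Smad7 kept a closer proportion, with ratios of 10.7 in Il17rc KO, 9.32 in Il17rd KO and 9.62 in WT cells with IL-17A, against 9.61 in untreated WT cells. Both ratios come from 1 library per group and were not tested.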
